A study of Mus musculus with 70 samples.

Results

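Wdfy1, Nnt, Rec8 and 0610037L13Rik are 4 genes, of 38293 gene lines in the count tables, whose RNA level in mouse brain differed between 2 sets of wild-type mice. They were chosen by these measured values, because the wild types labelled for one knockout line (WTa) differed from the wild types used elsewhere in the study (WT). The difference between WTa and WT therefore describes the members and is given here without a test. The question was whether the knockout line that goes with WTa carried the same levels, in cortex and in striatum.

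Messenger RNA of 2 brain tissues, cortex and striatum, was sequenced in 5 conditions, which makes 10 groups of 7 libraries and 70 libraries together. WT mice were untreated wild types. MMI mice were male wild types of the C57BL/6J strain made hypothyroid through the drinking water of their dams, which held 0.02% of methimazole, which stops the thyroid from making hormone, and 1% of potassium perchlorate, which keeps iodide out of it. The dams drank it between embryonic day 9 and postnatal day 21. In MctDio KO mice, 1 of 2 deleted genes was Dio2, whose enzyme turns the prohormone T4 into active T3. In MctOatp KO mice it was Slco1c1, the gene of the T4 transporter OATP1C1. The lines share their other deletion, so every knockout mouse carried it. WTa mice carry a label that ties them to the MctOatp KO line and served as its wild types. The hypothyroid and knockout mice were sampled on postnatal days 21 to 23. The age of WT and WTa mice, the sex of all groups but MMI, and the strain and breeding of WT, WTa and both knockout lines were not stated in the labels. Libraries with the same number in the titles of both tissues are called an animal below, since the titles number both tissues alike, although no label states it.

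Each of the genes has a known product. Wdfy1 encodes a protein with WD repeats and a FYVE domain, which binds a phosphoinositide of early endosomes, and it takes part in Toll-like receptor 3 and 4 signalling through the adaptor TRIF. Nnt encodes the transhydrogenase of the inner mitochondrial membrane, which uses the proton gradient to make NADPH for the removal of peroxide. The C57BL/6J strain is known for a deletion of several Nnt exons that C57BL/6N mice do not carry. Rec8 encodes the meiotic kleisin subunit of cohesin, best known from germ cells. The symbol 0610037L13Rik is a provisional name for the gene that RefSeq calls Czib, a small zinc-binding protein, and no role in brain is stated for it here.

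On GRCm38, Wdfy1 (ENSMUSG00000073643) lies on the minus strand at chr1:79702262-79776143, and Nnt (ENSMUSG00000025453) on the minus strand at chr13:119335448-119408997. Rec8 (ENSMUSG00000002324) lies on the plus strand at chr14:55618037-55625395, and 0610037L13Rik (ENSMUSG00000028608) on the plus strand at chr4:107889813-107899384. These are annotated as protein-coding genes on 4 different chromosomes, and each passed the filter on low counts in both tissues. Wdfy1 overlaps Mrpl44, a mitochondrial ribosome gene on the opposite strand. The library kit did not mark strand, so reads in the shared stretch cannot be told apart. A second annotated Nnt entry that overlaps the first has no line in the count tables.

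Gene counts per library ran between 7802957 and 22485839. The targeted genes fitted the labels: Dio2 stood at 3.4 to 8.22 CPM (counts scaled to library size, a normalised read count) in the MctDio KO libraries against 89.5 to 198 in WT, and Slco1c1 at 28 to 52.3 CPM in MctOatp KO against 72.4 to 92.4 in WTa. In all 70 libraries, Y-linked transcripts stood above Xist, the RNA of the inactive X chromosome. A position on 584 genes that separated the tissues was scaled so that 0 is cortex and 1 is striatum. By it, animal 7 of MctOatp KO went against its labels, at 0.924 in the library labelled cortex and -0.0347 in that labelled striatum. Other cortex libraries lay from -0.11 to 0.114 and other striatum libraries from 0.806 to 1.09. Multiply placed alignments made up 39.68% of the library labelled cortex MctOatp KO 1 and 27.81% to 30.48% of other cortex libraries. These 3 libraries are called the outlying libraries below, and results that rest on them are given with and without them.

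Wdfy1 RNA in MctOatp KO was near the WTa level in cortex and below it in striatum, and in WTa and MctOatp KO it stood well above the level of WT, MMI and MctDio KO in both tissues. In cortex it was 61.6 ± 3.36 CPM in WTa and 58.5 ± 14.1 in MctOatp KO, against 23.9 ± 2.69 in WT, 26 ± 1.73 in MMI and 26.9 ± 4.23 in MctDio KO (mean ± SD, n = 7). In striatum it was 76.8 ± 1.98 CPM in WTa and 60.2 ± 12.5 in MctOatp KO, against 23.3 ± 2.03 in WT, 27 ± 1.59 in MMI and 26.8 ± 3.99 in MctDio KO (mean ± SD, n = 7). The lowest MctOatp KO library, at 42.9 CPM in cortex and 45.2 in striatum, lay above the highest MMI or MctDio KO library, at 33.6 and 32.6.

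The 7 MctOatp KO animals did not hold a single Wdfy1 level. In cortex, animals 1 to 7 stood at 45.8, 42.9, 66.5, 43.4, 66.0, 67.4 and 77.4 CPM. In striatum, the same animals stood at 45.2, 48.6, 70.8, 49.3, 67.1, 77.1 and 63.0 CPM. Animals 1, 2 and 4 were the lowest of the group in both tissues, between the range of WTa and that of the other groups, and the other 4 reached or approached WTa. The WTa libraries were tight by comparison, from 56.5 to 67 CPM in cortex and from 74.5 to 79.2 in striatum. In the MctDio KO group, animals 5, 6 and 7 held the lowest Wdfy1 levels in both tissues, at 22.6 to 23.3 CPM in cortex and 22.4 to 23.3 in striatum, and animals 1 to 4 stood at 27 to 33.6 and 28 to 32.6.

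Nnt RNA followed the same order of groups with a smaller step. In cortex it was 27.7 ± 5.42 CPM in WTa and 25.4 ± 2.79 in MctOatp KO, against 16.8 ± 1.58 in WT, 15.5 ± 1.51 in MMI and 15.8 ± 2.35 in MctDio KO (mean ± SD, n = 7). In striatum it was 34.7 ± 5.33 CPM in WTa and 31.2 ± 3.49 in MctOatp KO, against 22.5 ± 1.23 in WT, 19.9 ± 1.02 in MMI and 20.3 ± 2.52 in MctDio KO (mean ± SD, n = 7). The MctOatp KO libraries ran from 21.2 to 30.4 CPM in cortex and from 26.7 to 37 in striatum, clear of the highest MctDio KO library at 20.9 and 24. The margin in cortex was narrow, since the lowest MctOatp KO library was animal 1, one of the outlying libraries, and the highest MctDio KO library was animal 5.

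Within WTa, Nnt fell into a lower and a higher set of animals. Animals 2, 4 and 7 stood at 32.8, 31 and 36 CPM in cortex and at 40.9, 38.1 and 41.6 in striatum. The other 4 WTa animals stood at 23.3 to 23.7 CPM in cortex and at 29.5 to 32.5 in striatum. The 2 sets did not overlap in either tissue, but they were drawn after these Nnt values were seen, so this is a description and no test. Wdfy1 in the same animals showed no such division.

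**Figure D1:**
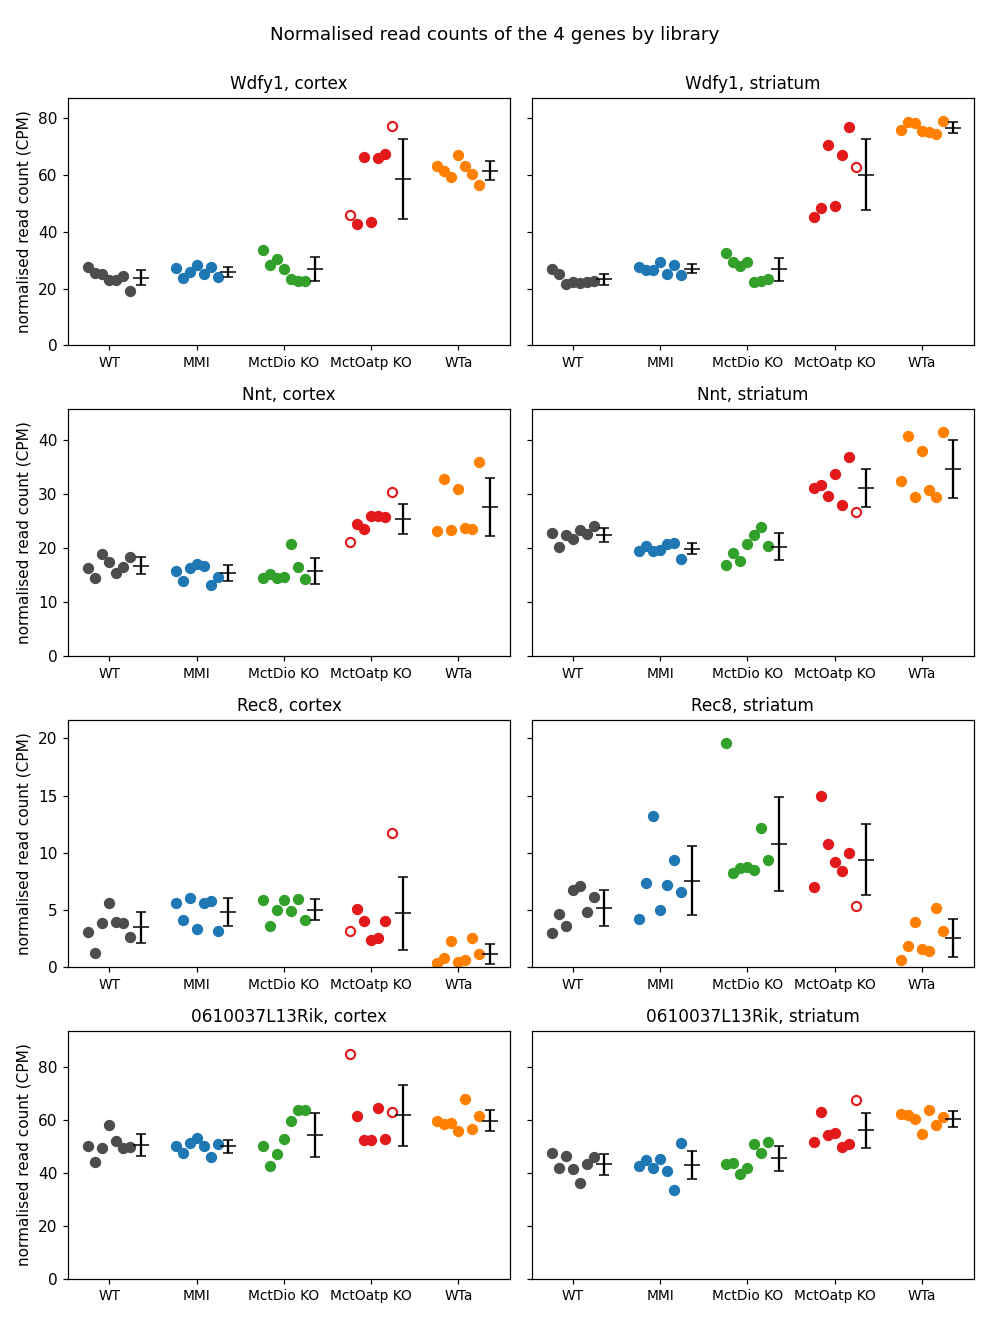
Normalised read counts (CPM, linear axes from 0) of Wdfy1, Nnt, Rec8 and 0610037L13Rik in cortex (left) and striatum (right). Each point is a library, in order of animal number within a group, open points are the 3 outlying libraries, and black bars give the mean ± SD of 7 libraries. Wdfy1 and Nnt are higher in MctOatp KO and WTa than in the other 3 groups, Rec8 is low in WTa, and 0610037L13Rik overlaps between groups.

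Rec8 RNA was scarce and went the other way in WTa, where it was the lowest of the 5 groups in both tissues. In cortex it was 1.19 ± 0.894 CPM in WTa against 3.49 ± 1.36 in WT, and in striatum 2.56 ± 1.63 against 5.18 ± 1.55 (mean ± SD, n = 7). MctOatp KO did not share this low level: it stood at 4.72 ± 3.21 CPM in cortex and 9.41 ± 3.09 in striatum, beside 4.83 ± 1.24 and 7.57 ± 3.01 in MMI and 5.05 ± 0.919 and 10.8 ± 4.11 in MctDio KO (mean ± SD, n = 7). In cortex, the MctOatp KO libraries had a median of 4.04 CPM, with a lowest of 2.37 and a highest of 11.7. That highest value belongs to the library labelled animal 7, which lay with the striatum libraries on the tissue genes, and the next highest was 5.12 CPM. Within WTa, animals 3 and 6 held the highest Rec8 levels in both tissues, at 2.28 and 2.59 CPM in cortex and 4 and 5.2 in striatum, and the lowest library held 6 reads of Rec8.

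0610037L13Rik was the most abundant of the 4 genes after dividing by exonic length, apart from Wdfy1 in striatum WTa, and it differed least between groups. Per kilobase of exon, it ran from 7.59 to 10.9 CPM over the 10 groups, Wdfy1 from 3.59 to 11.8, Nnt from 2.2 to 4.93 and Rec8 from 0.405 to 3.67. In cortex, 0610037L13Rik was 59.7 ± 4.09 CPM in WTa and 61.6 ± 11.6 in MctOatp KO, against 50.3 ± 4.14 in WT, 49.9 ± 2.39 in MMI and 54.1 ± 8.26 in MctDio KO (mean ± SD, n = 7). In striatum it was 60.2 ± 2.98 CPM in WTa and 56 ± 6.69 in MctOatp KO, against 43.1 ± 3.85, 42.8 ± 5.39 and 45.4 ± 4.73 (mean ± SD, n = 7). The groups overlapped: 2 of 7 MctOatp KO libraries in cortex and 4 of 7 in striatum lay above the highest MMI or MctDio KO library. MctDio KO animals 5, 6 and 7, the ones low for Wdfy1, were the highest of their group for 0610037L13Rik, at 59.4 to 63.8 CPM in cortex and 47.6 to 51.7 in striatum.

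As a description of the values that chose the members, WTa minus WT on the log2 scale was 1.37 ± 0.11 (SE) for Wdfy1 in cortex and 1.72 ± 0.09 in striatum. Nnt stood at 0.72 ± 0.10 and 0.62 ± 0.08, and 0610037L13Rik at 0.25 ± 0.09 and 0.48 ± 0.08. Rec8 was lower in WTa, at -1.59 ± 0.37 in cortex and -1 ± 0.33 in striatum. In this comparison 0.994% of genes were called in cortex and 6.43% in striatum, where called means a Benjamini-Hochberg adjusted p under 0.05 in edgeR's quasi-likelihood test.

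MctOatp KO was then set against the mean of MMI and MctDio KO. These 21 libraries in each tissue took no part in the WTa minus WT difference that chose the members. The spread was estimated over all 35 libraries of the tissue, and earlier results of these data were known, so the check is not fully separate. The comparison called 3 of the 4 genes in each tissue, where 15.5% of all genes tested were called in cortex and 12.7% in striatum. Higher calls made up 9.48% and 6.76% of the genes tested, and lower calls 6.04% and 5.98%. Wdfy1 rose by 1.15 ± 0.09 (log2, SE) in cortex (adjusted p = 5.99e-11) and by 1.16 ± 0.08 in striatum (adjusted p = 2.04e-13), a 2.21-fold and a 2.24-fold higher level. Nnt rose by 0.70 ± 0.09 (adjusted p = 2.09e-06) and by 0.63 ± 0.07 (adjusted p = 1.33e-07), or 1.62-fold and 1.55-fold. By the size of p, 0.0309% of the genes tested in cortex and 0.0246% in striatum ranked ahead of Wdfy1, and 0.0679% and 0.0553% ahead of Nnt.

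0610037L13Rik rose by 0.35 ± 0.07 (log2, SE) in striatum (adjusted p = 0.000498). In cortex its difference was 0.24 ± 0.08 (adjusted p = 0.0322), and that call rested on the library labelled cortex MctOatp KO 1, whose value of 84.9 CPM was the highest of the group. Without that library the difference was 0.15 (adjusted p = 0.114), and without both outlying cortex libraries it was 0.13 (adjusted p = 0.224). Rec8 was not called, with a log2 difference of -0.07 (95% interval -0.62 to 0.47, adjusted p = 0.881) in cortex and 0.04 (-0.45 to 0.54, adjusted p = 0.934) in striatum. Its difference without the outlying libraries was -0.43 in cortex (adjusted p = 0.272) and 0.14 in striatum (adjusted p = 0.775).

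For Wdfy1 and Nnt, the same direction and size appeared against each of the groups alone. Against MMI, Wdfy1 was higher in MctOatp KO by 1.17 ± 0.11 (log2, SE) in cortex and 1.15 ± 0.09 in striatum, and against MctDio KO by 1.12 ± 0.11 and 1.17 ± 0.09. Nnt was higher by 0.72 ± 0.10 and 0.64 ± 0.08 against MMI and by 0.68 ± 0.10 and 0.61 ± 0.08 against MctDio KO. These 8 values of Wdfy1 and Nnt passed the test, at adjusted p from 3.37e-11 to 6.09e-05. The comparisons called 13.6% of genes in cortex and 17.3% in striatum against MMI, and 3.51% and 4.57% against MctDio KO. 0610037L13Rik stood at 0.30 in cortex and 0.39 in striatum against MMI, and at 0.18 and 0.30 against MctDio KO. Its cortex value against MctDio KO was not called (adjusted p = 0.207). Its cortex value against MMI lost its call without the outlying libraries (adjusted p = 0.0852). Rec8 was not called against either group. All 3 groups of the comparison are models of low thyroid hormone action in brain, made in different ways, so line and model cannot be told apart in it. In whole tissue, fewer cells that express a gene and less RNA per cell cannot be told apart either.

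MctOatp KO minus WTa asks how far the knockout matched the wild types of its own line. It uses the WTa values that chose the members, so it is given as a description with no test. Wdfy1 differed by -0.07 ± 0.11 (log2, SE) in cortex and by -0.35 ± 0.09 in striatum. For Nnt the differences were -0.12 ± 0.10 and -0.16 ± 0.08, and for 0610037L13Rik 0.04 ± 0.09 and -0.10 ± 0.08. In striatum, 6 of 7 MctOatp KO libraries lay below the lowest WTa library for Wdfy1. Among these 6 is the library labelled animal 7, at 63 CPM, which lay with the cortex libraries on the tissue genes. In cortex the libraries of the groups overlapped. The alternatives tried, leaving out the outlying libraries among them, gave -0.37 to -0.35 for Wdfy1 in striatum. The Wdfy1 value in striatum minus that in cortex was -0.28 ± 0.14 (log2, SE), also a description.

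In the same comparison, Rec8 stood at 2.04 ± 0.36 (log2, SE) in cortex and 1.85 ± 0.32 in striatum, MctOatp KO being the higher. Leaving out the outlying libraries gave 1.69 and 1.95. In cortex, 6 of 7 MctOatp KO libraries lay above 2.59 CPM, the highest WTa library, animal 5 narrowly at 2.6, and the exception was animal 4 at 2.37 CPM. In striatum the lowest MctOatp KO library, the outlying library of animal 7 at 5.36 CPM, lay above the highest WTa library at 5.2. By these levels, Wdfy1, Nnt and 0610037L13Rik in MctOatp KO stood nearer to WTa than to WT in both tissues, and Rec8 in MctOatp KO was above both.

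Whether MctOatp KO minus the mean of MMI and MctDio KO varied with tissue was tested over all 70 libraries. None of the 4 genes was called, with adjusted p from 0.567 to 0.963, where 8.34% of genes were called. Striatum minus cortex was 0.01 ± 0.13 (log2, SE) for Wdfy1, -0.07 ± 0.11 for Nnt, 0.12 ± 0.37 for Rec8 and 0.10 ± 0.10 for 0610037L13Rik. The Rec8 value is loose, and the alternatives tried gave 0.12 to 0.57 without a call. Over all genes, the count called went from 1403 to 67 without the outlying libraries.

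MctDio KO was also compared with MMI, groups that likewise took no part in the WTa minus WT difference. None of the 4 genes was called in either tissue, where 3.19% of genes were called in cortex and 7.45% in striatum. The 95% intervals of the log2 difference were -0.18 to 0.27 and -0.20 to 0.18 for Wdfy1, -0.18 to 0.24 and -0.14 to 0.20 for Nnt, and -0.06 to 0.30 and -0.06 to 0.25 for 0610037L13Rik. For Rec8 they were wider, at -0.57 to 0.69 in cortex and -0.06 to 1.08 in striatum. MMI minus WT and MctDio KO minus WT use the WT values that chose the members and are given without a test. In MMI minus WT, Wdfy1 stood at 0.12 ± 0.11 (log2, SE) in cortex and 0.21 ± 0.10 in striatum, and Nnt at -0.12 ± 0.10 and -0.17 ± 0.08. Rec8 stood at 0.49 ± 0.32 and 0.55 ± 0.29 in the same comparison. In MctDio KO minus WT, Rec8 stood at 0.55 ± 0.32 in cortex and 1.06 ± 0.29 in striatum, where the highest library was animal 1 at 19.6 CPM.

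**Figure D2:**
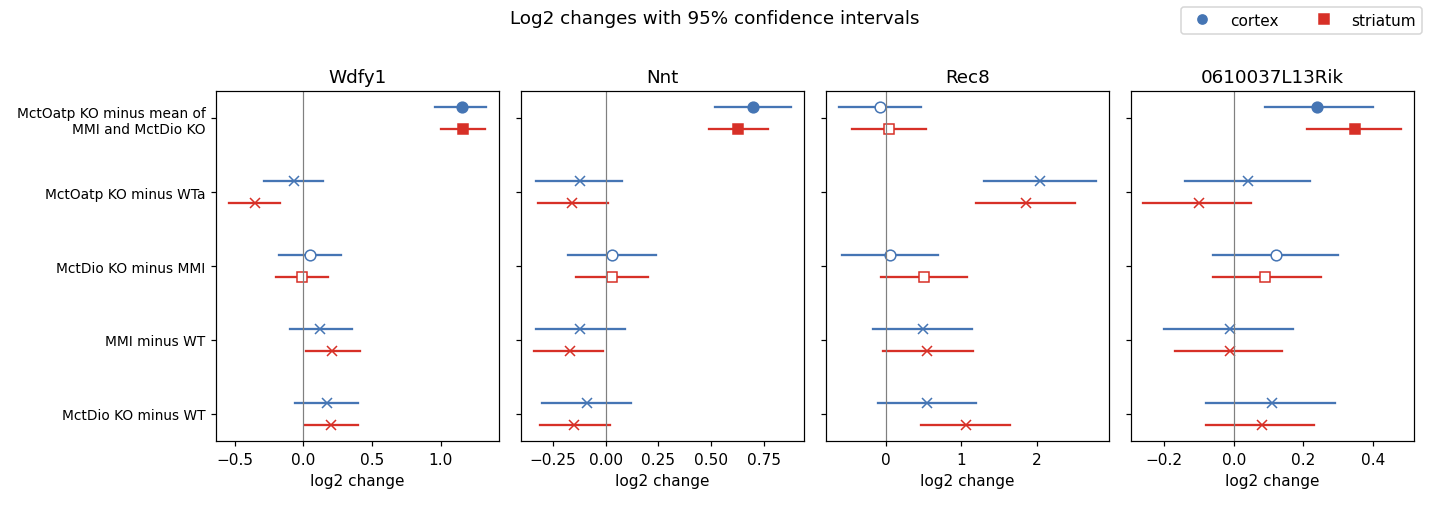
Log2 change of each gene in 5 comparisons (horizontal axis, log2 scale, a separate range in each panel), in cortex (blue, circles) and striatum (red, squares). Lines are 95% confidence intervals, and filled symbols have an adjusted p under 0.05. Symbols drawn as crosses belong to comparisons that share WT or WTa with the choice of the genes and were not tested. The lines of the crosses show spread only and are not to be read against 0. Wdfy1 and Nnt stand clear of 0 in MctOatp KO minus the mean of MMI and MctDio KO.

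Complete separation of the groups was uncommon. In cortex, 0.0556% of genes had all MctOatp KO libraries above all MMI and MctDio KO libraries and 0.161% had them all below. In striatum the shares were 0.184% and 0.203%. In both tissues at once, 3 of 15764 genes showed it: Wdfy1 and Nnt with the higher level, and Slco1c1, deleted in this line, with the lower. With WTa added to MctOatp KO and WT to the other side, a split that the choice of members partly fixes, 2 genes separated in both tissues, again Wdfy1 and Nnt, where the shares above and below were 0.0123% and 0.0185% in cortex and 0.0184% each in striatum. The first count was 13 and the second was 2 when the outlying libraries were left out.

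Levels by tissue were a measure that the choice of members did not use. Over the 5 conditions, Nnt was higher in striatum than in cortex by 0.32 ± 0.04 (log2, SE, adjusted p = 1.98e-10) and Rec8 by 0.87 ± 0.15 (adjusted p = 2.79e-07). 0610037L13Rik was lower in striatum, at -0.20 ± 0.04 (log2, SE, adjusted p = 5.51e-06), and Wdfy1 differed by 0.04 ± 0.05 (adjusted p = 0.414). This fit did not pair the tissues of an animal. Alternatives were the animal as a block, DESeq2 size factors, and leaving out the outlying libraries. They gave 0.31 to 0.33 for Nnt, 0.86 to 0.96 for Rec8 and -0.21 to -0.19 for 0610037L13Rik, with the same calls. In this comparison 74.2% of genes were called, so a tissue difference is not particular to these genes.

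Individual differences within groups carried over from cortex to striatum. As a description, each library's log2 CPM was taken as a deviation from its group mean, and the cortex value was set against the striatum value of the same animal. Over 35 animals, Pearson's r was 0.82 for Wdfy1, 0.52 for Nnt, 0.48 for Rec8 and 0.27 for 0610037L13Rik, with a median of 0.05 over 15764 genes. An r at least as high was found in 0.108% of genes for Wdfy1, 3.44% for Nnt, 4.81% for Rec8 and 18.4% for 0610037L13Rik. Without MctOatp KO animals 1 and 7, r was 0.86, 0.66, 0.68 and 0.40, with a median of 0.23 over all genes. Points of an animal share that animal and whatever was common to its dissection, and the values are no test.

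**Figure D3:**
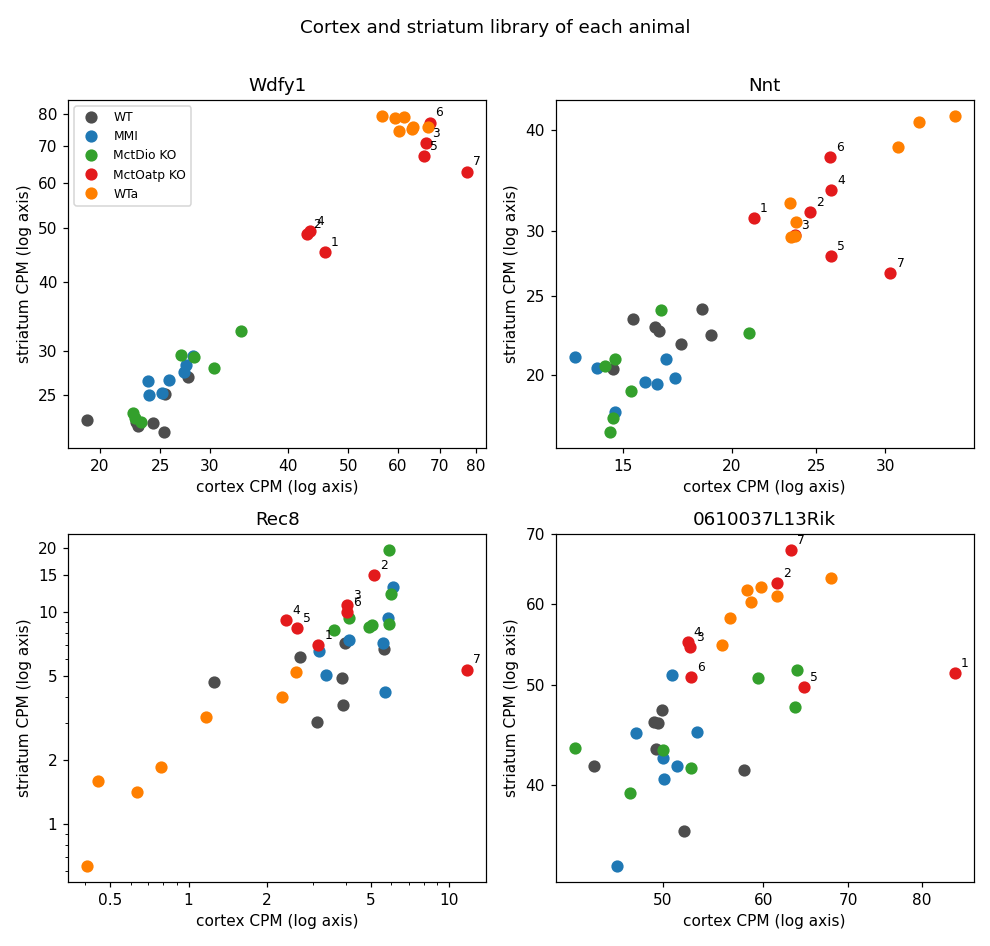
Normalised read count (CPM, log axes) of each gene in the cortex library (horizontal) and the striatum library (vertical) of each animal, coloured by group, with numbers on the MctOatp KO animals. For Wdfy1, animals 1, 2 and 4 lie at 42.9 to 45.8 CPM in cortex and 45.2 to 49.3 in striatum, between the other MctOatp KO animals and the 3 low groups.

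Over the 70 libraries, taken as deviations from the tissue mean, Pearson's r was 0.83 between Wdfy1 and Nnt, 0.64 between Wdfy1 and 0610037L13Rik, 0.63 between Nnt and 0610037L13Rik, and -0.31 to -0.46 between Rec8 and each of the others. These values carry the group differences that chose the genes. Taken as deviations from the group means, r between Wdfy1 and Nnt was -0.08, between Wdfy1 and 0610037L13Rik -0.33, and in the other pairs -0.05 to 0.07. These pooled values do not speak for single groups: MctDio KO animals 5 and 6 were the 2 highest of their group for Nnt, at 20.9 and 16.6 CPM in cortex and 22.5 and 24 in striatum, and were also among the 3 highest for 0610037L13Rik.

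The genes whose pattern over the 70 libraries was most like that of each member were taken from 13873 genes by the size of Pearson's r. After Nnt, Wdfy1 was followed by Crocc, which encodes the ciliary rootlet protein rootletin (r = 0.82), the unnamed gene ENSMUSG00000079733 (r = -0.80) and Msi1, an RNA-binding protein of neural progenitors (r = -0.79). For Nnt they were, after Wdfy1, Gabra2, the alpha-2 subunit of the GABA-A receptor (r = 0.78), Tsga10, a gene best known from testis (r = 0.78), Crocc (r = 0.77) and ENSMUSG00000079733 (r = -0.77). For Rec8 they were Zfp783 (r = 0.77), Evpl (0.75), Gaa (0.74), Col6a2 (0.72) and Slc37a1 (0.71), and for 0610037L13Rik they were Mrps25 (r = 0.80), Lman2l (0.80), Pex6 (0.77), Stk16 (0.75) and Vps11 (-0.75). None of those with a known position lay on the chromosome of the member it resembled. The libraries share groups and depth, and without the outlying libraries these values of r moved by no more than 0.05.

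Crocc and Gabra2 had the group pattern of Wdfy1 and Nnt with more overlap in the libraries as labelled. Without the outlying libraries, Crocc was among the 13 genes that separated MctOatp KO from MMI and MctDio KO in both tissues. It was not among those that separated once WTa and WT were added. Crocc and Gabra2 were picked for their likeness over these same libraries, so their group differences are a description with no test. Crocc was 99.1 ± 16.9 CPM in WTa and 90.2 ± 33.5 in MctOatp KO in cortex, against 53.3 to 59.6 for the means of the other groups, and in striatum 187 ± 36 and 146 ± 18.8 against 63.9 to 87 (mean ± SD, n = 7). MctOatp KO minus the mean of MMI and MctDio KO was 0.73 ± 0.13 (log2, SE) for Crocc in cortex and 1.17 ± 0.12 in striatum. Gabra2, which carries an intronic deletion in C57BL/6J that lowers its RNA, stood at 0.79 ± 0.15 (log2, SE) in cortex and 0.88 ± 0.14 in striatum. WTa animals 2, 4, 6 and 7 held the highest Gabra2 levels in both tissues, at 48.5 to 62.3 CPM in cortex and 47.7 to 58.2 in striatum, and 3 of these 4 are the animals high for Nnt. Within MctDio KO, animals 5, 6 and 7, set apart above by Wdfy1 and 0610037L13Rik, were also the highest for Gabra2 and Tsga10. Their Tsga10 levels were 24 to 26.2 CPM in cortex and 23.1 to 24.7 in striatum, near the MctOatp KO mean of 24.8 and 24.6, against 14.2 to 18.9 and 15 to 18.1 in animals 1 to 4. Gabra2 stood at 37.5 to 49.8 CPM in cortex and 35.7 to 39.9 in striatum in animals 5 to 7, against 27.4 to 29.1 and 22.9 to 28.6 in animals 1 to 4. The MctDio KO group was thus not uniform in these genes.

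ENSMUSG00000079733 was nearly absent in WTa, with 5 reads over 7 cortex libraries and 10 over 7 striatum libraries, against 575 and 455 in WT, 663 and 673 in MMI, 413 and 409 in MctDio KO and 155 and 198 in MctOatp KO. The MctOatp KO reads were unevenly spread: animal 3 had 0 in both tissues and animal 4 had 8 in cortex and 0 in striatum, while animals 2, 5, 6 and 7 had 31 to 46 in cortex and 27 to 47 in striatum. Animal 1 had 2 reads in the outlying cortex library and 57 in striatum. With 0 reads, a level of up to 3 reads in the library is allowed by counting error.

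Of genes known to differ among C57BL/6 substrains by a deletion, a copy number or a coding variant, Ide, the insulin-degrading enzyme, was lower in MctOatp KO than the mean of MMI and MctDio KO. It fell by 0.76 ± 0.09 (log2, SE, adjusted p = 2.24e-06) in cortex and by 0.74 ± 0.09 (adjusted p = 1.95e-06) in striatum. Its level was 70.8 ± 3.62 CPM in cortex WTa and 58.2 ± 8.4 in MctOatp KO, against 139 ± 6.52 in WT, 106 ± 17 in MMI and 91.8 ± 18.2 in MctDio KO (mean ± SD, n = 7). By these means, MMI and MctDio KO were also below WT. The Ide libraries of MctDio KO ran from 59.4 to 117 CPM in cortex, overlapping those of MctOatp KO at 40.4 to 66.5. In striatum they ran from 64.3 to 114 CPM against 47.5 to 63.4. Crb1 and Cyfip2, also known to differ among substrains, were not called in either tissue. Mmrn1, Nlrp12 and Entpd4, listed with them, did not pass the filter on low counts and were not tested.

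**Figure D4:**
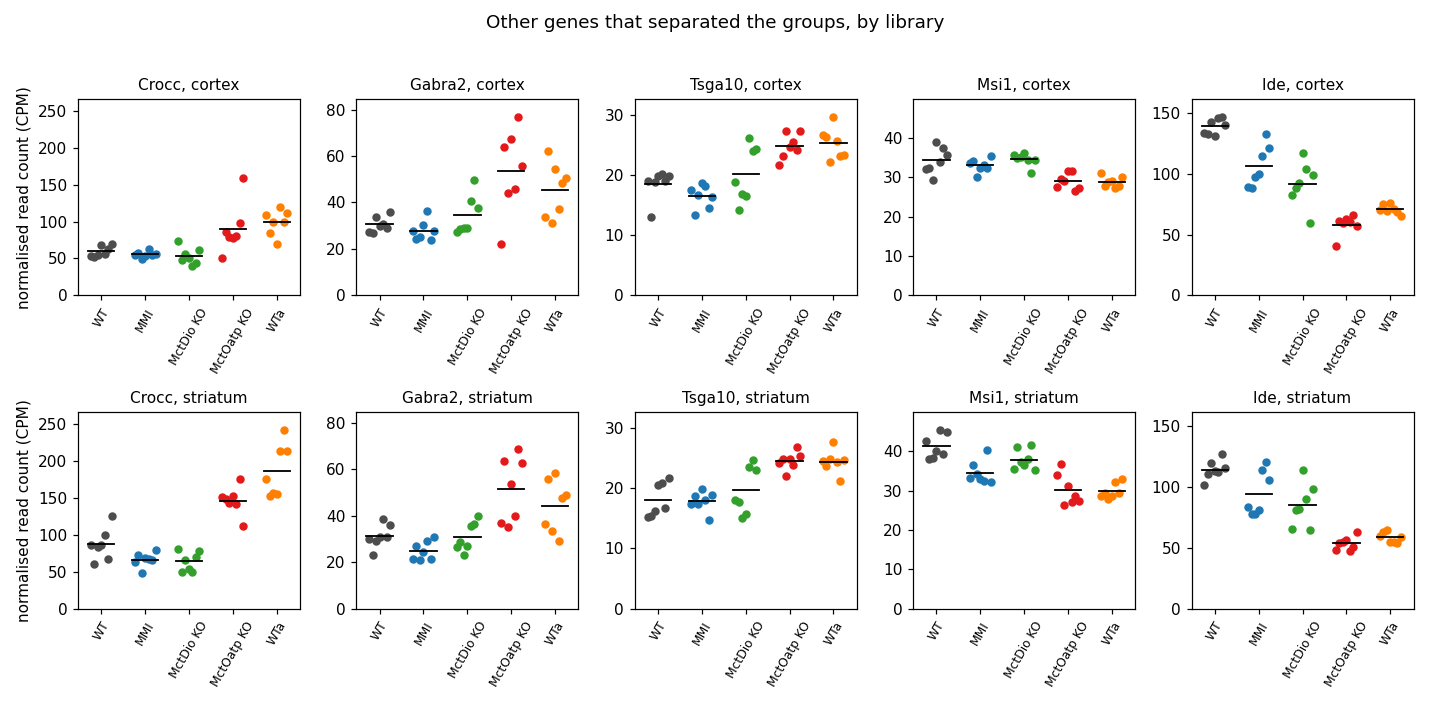
Normalised read counts (CPM, linear axes from 0) of Crocc, Gabra2, Tsga10, Msi1 and Ide by library, in cortex (top) and striatum (bottom), with the group means as lines. Crocc, Gabra2 and Tsga10 are higher and Ide and Msi1 lower by their group means in MctOatp KO and WTa than in WT.

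The lists of genes that work with the members are described for MctOatp KO minus the mean of MMI and MctDio KO, beside the 15.5% of all genes called in cortex and 12.7% in striatum and the median log2 difference of 0.02 and 0.01 over all genes. Of 18 genes of mitochondrial NADPH supply and peroxide removal, the setting of Nnt, 1 rose and 2 fell in cortex and 1 rose and 1 fell in striatum, or 3 and 2 of 18, close to the share over all genes, with a median log2 difference of 0.09 and 0.00. Gpx1, a glutathione peroxidase, was higher in cortex by 0.41 ± 0.13 (log2, SE, adjusted p = 0.0346), and without the outlying libraries its difference was -0.03 (adjusted p = 0.742). Idh2, the mitochondrial NADP-dependent isocitrate dehydrogenase, fell by 0.21 ± 0.07 (log2, SE, adjusted p = 0.0403) in cortex. Shmt2, the mitochondrial serine hydroxymethyltransferase, fell by 0.18 ± 0.06 in cortex (adjusted p = 0.0476) and in striatum (adjusted p = 0.0463). Its adjusted p was 0.127 and 0.043 without the outlying libraries. Glrx2, a mitochondrial glutaredoxin, rose by 0.21 ± 0.05 (adjusted p = 0.00496) in striatum.

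Of 16 genes of Toll-like receptor 3 and 4 signalling through TRIF, the setting of Wdfy1, 13 were tested, and 3 fell in each tissue with none higher, where 6.04% of all genes fell in cortex and 5.98% in striatum. The median log2 difference was -0.18 in cortex and -0.14 in striatum, against 0.02 and 0.01 over all genes. Irf7, an interferon-induced transcription factor, fell by 1.74 ± 0.34 (log2, SE, adjusted p = 0.00115) in cortex and by 1.86 ± 0.28 (adjusted p = 3.63e-05) in striatum. Its level was 7.88 ± 2.96 CPM in cortex MMI, 2.43 ± 1.47 in MctDio KO and 1.38 ± 0.671 in MctOatp KO, beside 2.54 ± 1.81 in WT and 1.18 ± 0.355 in WTa. In striatum it was 12.3 ± 2.52 CPM in MMI, 4.19 ± 2.7 in MctDio KO and 1.94 ± 0.895 in MctOatp KO, beside 3.87 ± 1.89 and 1.71 ± 0.243 (mean ± SD, n = 7). MMI thus stood highest in both tissues. Against MctDio KO alone, Irf7 was lower by 1.09 ± 0.32 (log2, SE, adjusted p = 0.0442) in striatum and was not called in cortex (adjusted p = 0.149). Tlr3, the receptor for double-stranded RNA, fell by 0.33 ± 0.08 (log2, SE, adjusted p = 0.0051) in striatum. Rela, an NF-kappa-B subunit, fell by 0.23 ± 0.06 (adjusted p = 0.0146) in cortex. Traf3, an adaptor of the pathway, fell by 0.32 ± 0.10 (adjusted p = 0.0273) in cortex, and Nfkb1, another NF-kappa-B subunit, by 0.17 ± 0.06 (adjusted p = 0.0421) in striatum. Without the outlying libraries, Traf3 was at -0.13 (adjusted p = 0.198) and Nfkb1 at -0.13 (adjusted p = 0.137).

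Among 16 genes of FYVE domain proteins and early endosomes, 2 rose and 1 fell in cortex and 1 rose and 2 fell in striatum, or 3 of 16 in each tissue against 15.5% and 12.7% of all genes, with median log2 differences of 0.00 and -0.01. Zfyve26, which encodes spastizin, fell by 0.88 ± 0.15 (log2, SE, adjusted p = 0.000408) in cortex and by 0.85 ± 0.12 (adjusted p = 1.04e-05) in striatum. MctOatp KO animal 4 did not share the fall of Zfyve26, at 32.2 CPM in cortex and 40.4 in striatum, while the other 6 animals stood at 5.27 to 18.8 and 14.9 to 17.7. Its level in WTa, 29.3 ± 1.77 CPM in cortex and 35.9 ± 2.47 in striatum, was close to that of WT, MMI and MctDio KO, so Zfyve26 did not share the line pattern of Wdfy1. Pik3c3, the class III phosphoinositide kinase that makes the lipid bound by FYVE domains, rose by 0.30 ± 0.07 (adjusted p = 0.00354) in cortex, and by 0.15 (adjusted p = 0.0167) without the outlying libraries. Of 22 cohesin and meiotic axis genes, the setting of Rec8, 16 were tested in cortex and 18 in striatum, and 2 rose in cortex and none was called in striatum, at or below the 15.5% and 12.7% of all genes. The 2 that rose were Pds5b, a cohesin regulator, at 0.27 ± 0.06 (log2, SE, adjusted p = 0.00348) and Sycp2, a meiotic axis protein, at 0.61 ± 0.20 (adjusted p = 0.0362). Without the outlying libraries, Sycp2 was at 0.26 (adjusted p = 0.298), and Mau2, a cohesin loader subunit, was lower at -0.14 (adjusted p = 0.0439). The germ cell markers Dazl, Ddx4, Sycp3 and Stra8 summed to 7.49 to 15.8 CPM in cortex MctOatp KO and 5.09 to 8.88 in the other cortex groups. In striatum they summed to 8.27 to 21.7 CPM in MctOatp KO, the group with the outlying libraries, and 10.7 to 17.1 in the other groups.

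Genes whose start lies within 500 kb of that of a member were examined for the same change. Of 56 such genes tested in cortex 7 were called, or 12.5%, and of 53 in striatum 5 were called, or 9.43%, both below the share over all genes given above. The counts were 7 of 57 and 3 of 53 without the outlying libraries. Mrpl44, which overlaps Wdfy1, differed by 0.15 ± 0.09 (log2, SE, adjusted p = 0.236) in cortex and -0.03 ± 0.05 (adjusted p = 0.727) in striatum. Irf9, an interferon response factor 14 kb from Rec8, was the one neighbour called in both tissues. In MctOatp KO it stood below the mean of MMI and MctDio KO by 0.64 ± 0.12 (log2, SE, adjusted p = 0.00125) in cortex and by 0.69 ± 0.12 (adjusted p = 0.000114) in striatum. Its level was highest in MMI, at 26.6 ± 5.12 CPM in cortex and 32 ± 3.34 in striatum, and lowest in WTa, at 11.6 ± 1.19 and 12.6 ± 1.64 (mean ± SD, n = 7). MctOatp KO, at 14.6 ± 3.05 and 16.2 ± 3.05 CPM, lay near WT, at 15.8 ± 2.75 and 17.7 ± 1.9. Against MctDio KO alone, Irf9 was not called (adjusted p = 0.0862 in cortex and 0.0709 in striatum).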

How the data were processed

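Per the labels' protocols, libraries were made from 500 ng of total RNA with a kit that does not mark strand and sequenced from 1 end over 75 nt. The authors deposited unnormalized read counts for each gene. The submitters' processing notes name CASAVA, FastQC, Bowtie, TopHat, HTSeq, edgeR and GRCm38, without versions or settings. Counts that fell in no gene were 8.879% to 16.51% of those in a gene, in no gene or ambiguous between genes. Alignments that were not unique were 27.49% to 39.68% of the gene counts plus all uncounted classes. Both stayed out of the library sizes. Symbols and positions came from GENCODE M21 (36345 of 38293 identifiers).

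The 35 libraries of a tissue were fitted with edgeR 4.0.16 (TMM scaling, filterByExpr, robust quasi-likelihood F test), which tested 16198 genes in cortex and 16267 in striatum, with Benjamini-Hochberg adjustment over all of them. Comparisons between tissues used all 70 libraries and 16814 genes. The common biological coefficient of variation was 0.169 and 0.133. CPM are TMM-scaled, and log2 CPM use a prior count of 2. Likeness was taken over genes averaging 2 CPM or more, 5 per member, and from each gene list up to 3 members of smallest p in a tissue were eligible for naming, beside the members, Dio2, Slco1c1 and neighbours called in both tissues. Zfyve26 in WTa, the divisions among animals and Mrpl44 were chosen after their values were seen. The fit was tested on simulated data.

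The members and lists were chosen with earlier results of these data known. No label says that the libraries of a group come from separate litters, so p-values measure the spread between these animals. Numbers shared between conditions did not pair the libraries within a tissue (median correlation 0.03 in cortex and 0.02 in striatum). The other gene deleted in both knockout lines, and 1 gene that the naming rule also picked, are not reported here.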

Additional observations from a re-analysis of the deposited data

Results flagged for a closer look

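Dixon's test for a value far from the rest was applied to each of 40 sets of 7 libraries, that is each of the 4 genes in each of the 10 groups, and it marked 4 of them. Chance marks about 1 in 20 such sets. Nnt was 20.9 CPM in the library cortex MctDio KO 5, with the next at 16.6. Rec8 was 11.7 CPM in the library labelled cortex MctOatp KO 7, which lay with the striatum libraries on the tissue genes. 0610037L13Rik was 84.9 CPM in the library labelled cortex MctOatp KO 1, where 39.68% of alignments were not unique. Rec8 was 19.6 CPM in the library striatum MctDio KO 1. What part tissue, alignment or animal had in these values was not tested.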

How the results depend on the processing

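The rises of Wdfy1 and Nnt in MctOatp KO over the mean of MMI and MctDio KO passed the test under each alternative tried: DESeq2 size factors, the DESeq2 Wald test, no filter on low counts, the replicate block, the spread of the compared groups alone, leaving out the outlying libraries and leaving out each library in turn, which gave 1.07 to 1.22 for Wdfy1 in cortex and 0.65 to 0.74 for Nnt. The cause of the changes below was not tested. For 0610037L13Rik in cortex that difference lost its call with the spread of the compared groups alone (0.25) and without the outlying libraries (0.13), and leaving out 1 library gave 0.15 to 0.28. With the replicate block, which pairs no animals by the check in the methods, the count of genes called in that comparison in cortex went from 2514 to 1595 and in MctDio KO minus WT from 1221 to 805, and 0610037L13Rik in cortex kept its call at 0.24. With the animal as a replicate block, genes whose MctOatp KO difference varied with tissue went from 1403 to 517, and to 67 without the outlying libraries. With the spread of the compared groups alone, counts were 646 in cortex and 1360 in striatum for the first comparison (2514 and 2071 before), 580 for MctOatp KO minus WTa in cortex (2080), 1411 for MctDio KO minus MMI (516), 6274 for MMI minus WT (3350) and 2810 for MctDio KO minus WT (1221). Without the outlying libraries, the cortex counts were 3569 for MctOatp KO minus WTa, 1805 for MctDio KO minus MMI, 6559 for MMI minus WT and 3760 for MctDio KO minus WT, and MctDio KO minus MMI in striatum went from 1212 to 2007. Leaving out 1 library gave 2849 to 5463 for MMI minus WT, 388 to 1090 for MctDio KO minus MMI, 913 to 2610 for MctDio KO minus WT and 1553 to 3160 for MctOatp KO minus WTa in cortex, and 890 to 2007 for MctDio KO minus MMI in striatum.

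Changes of sign were seen in values that were not called or not tested. Without the outlying libraries, 0610037L13Rik in MctOatp KO minus WTa in cortex went from 0.04 to -0.08, the tissue difference of Nnt in that comparison from -0.04 to 0.01 and that of Rec8 from -0.19 to 0.26, or to 0.01 with the animal block. Leaving out 1 library moved Rec8 in MctOatp KO over -0.46 to 0.05 in cortex and -0.11 to 0.15 in striatum against the mean of both groups, -0.43 to 0.08 against MMI and -0.49 to 0.02 against MctDio KO in cortex. In MctDio KO minus MMI, the ranges were -0.03 to 0.13 for Rec8 in cortex, -0.04 to 0.06 and -0.02 to 0.07 for Nnt in cortex and striatum, and -0.01 to 0.09 and -0.07 to 0.03 for Wdfy1. For 0610037L13Rik they were -0.04 to 0.02 and -0.06 to 0.05 in MMI minus WT and -0.05 to 0.08 in MctOatp KO minus WTa in cortex. Rec8, with as few as 6 reads in a library, has the widest intervals, and at this depth differences inside them were not detectable.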
